A study of Mus musculus with 2 samples.

Results

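The genes described are those for the enamel matrix and the enzymes that process it: Amelx, Ambn, Enam, Mmp20, Odam, Klk4 and Amtn. They were taken by gene symbol, and all 7 were among the 31253 genes of the count tables. Cells came from the mandibular first molar tooth germs of newborn C57BL/6 mice and were sequenced as 2 single-cell libraries. The control library was Edarfl/fl, with both Edar alleles floxed and no Cre. The deletion library was K14cre;Edarfl/fl, in which the keratin 14 promoter drives Cre in epithelium, so that both libraries carry the floxed alleles and the deletion is aimed at epithelium, including oral epithelium. The number of animals per library is not stated and each genotype has 1 library, so no difference between genotypes carries a test across animals, and intervals below cover counting error only.

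Enamel is laid down outside cells by ameloblasts, columnar epithelial cells that differentiate from the inner enamel epithelium. In the secretory stage they release amelogenin (Amelx), ameloblastin (Ambn) and enamelin (Enam), and the metalloproteinase enamelysin (Mmp20) cleaves these proteins as they are deposited. In the later maturation stage kallikrein 4 (Klk4) degrades the remaining matrix, while amelotin (Amtn) and the odontogenic ameloblast-associated protein (Odam) are made at the cell and enamel surface.

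Odam, Amtn, Ambn and Enam lie in this order on the plus strand of chromosome 5 (GENCODE annotation of mm10), at 5:87885029-87894174, 5:88376108-88385916, 5:88455991-88468531 and 5:88487975-88506049. No gene lies in the 19.443 kb between Ambn and Enam, and no coding gene in the 70.074 kb between Amtn and Ambn. Amelx, at X:169176114-169187200 on the minus strand, sits inside a gene of the other strand, Arhgap6. Mmp20 is at 9:7628231-7674979 and Klk4 at 7:43881160-43885804, both on the plus strand. How counting treated strand was not stated, but Arhgap6 had 4 and 6 UMIs (unique molecular identifiers, the tags that mark single captured molecules) in the control and deletion cells richest in Amelx, and the antisense gene AV064505 at the end of Mmp20 had 0 and 0.

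The 100 bases before the annotated start (RefSeq, GRCm38.p6) are shown for the 5 members that share a run of letters there, and for Mmp20, which is read in the same ameloblasts but lacks it. Capitals mark TGATTGG, whose end reads CCAAT on the other strand.
Amelx (X:169187210-169187309, minus strand): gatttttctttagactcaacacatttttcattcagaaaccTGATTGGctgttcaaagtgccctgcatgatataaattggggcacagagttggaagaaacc
Ambn (5:88455891-88455990, plus strand): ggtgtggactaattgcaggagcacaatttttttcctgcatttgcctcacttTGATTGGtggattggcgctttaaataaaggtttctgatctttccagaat
Enam (5:88487875-88487974, plus strand): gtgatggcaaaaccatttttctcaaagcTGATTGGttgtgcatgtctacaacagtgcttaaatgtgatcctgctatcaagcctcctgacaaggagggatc
Odam (5:87884910-87885009, plus strand): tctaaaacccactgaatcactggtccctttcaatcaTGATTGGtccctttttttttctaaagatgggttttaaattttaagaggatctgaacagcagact
Amtn (5:88376008-88376107, plus strand): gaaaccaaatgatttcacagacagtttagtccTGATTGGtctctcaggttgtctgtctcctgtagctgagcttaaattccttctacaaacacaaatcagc
Mmp20 (9:7628131-7628230, plus strand): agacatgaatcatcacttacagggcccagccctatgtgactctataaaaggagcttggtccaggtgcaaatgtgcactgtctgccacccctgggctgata

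TGATTGG stood on the gene's own strand in 5 of the 7 members, its first base between 49 (Ambn) and 72 (Enam) bases before the start. Searched on both strands, it was present in the same window of 4.58% of 32851 mouse promoters. TTAAAT followed in the 4 members on chromosome 5, and was present in 4.46% of promoters on either strand. TATAAA was present in Amelx and Mmp20, and in 5.56% of promoters. These letters were picked after the 7 sequences had been read, and they do not overlap each other. They are a description of the sequence and say nothing of which factor binds.

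The libraries held 13990 (control) and 16029 (deletion) barcodes with 73375441 and 62158879 UMIs. Filters and doublet removal kept 13255 and 15244 cells, with medians of 4444 and 3329 UMIs, and 4 barcodes occurred in both. Clusters were made with the 7 genes left out and named from markers among the other genes. Epithelium-like cells numbered 2274 and 1889, of which 505 and 348 were ameloblast-like, in a sub-cluster led by Dspp and Calb1 (333 and 194 cells) and one led by Vat1l and Unc5c (172 and 154). In the Dspp-led cells the 9 ameloblast markers summed to 7326 and 6552 CPM (UMIs scaled to a common total per group), against 4475 and 4104 CPM for the 8 epithelial markers. The 8 mesenchymal markers summed to 2273 and 1922 CPM there and the 6 endothelial ones to 14.4 and 22.9. Dspp, better known from odontoblasts, is also an odontoblast marker, and Vat1l is on the list for stellate reticulum, so both names rest on the whole lists. Of the ameloblast markers, Calb1 lay almost wholly in the Dspp-led cells, with 6601 of 6882 and 2678 of 2840 ameloblast-like UMIs. Acp4 did too (56 of 58 and 48 of 49). Sp6 (2278 of 3011 and 822 of 1341), Fam83h and Wdr72 were shared more. The name of the Vat1l-led cells is thus weaker, and their own marker sums are not given. Edar itself had 34.6 CPM (95% interval 31.1 to 38.4) in control and 21.1 (17.8 to 24.8) in deletion epithelium-like cells; which exon is floxed is not stated, so these counts do not check the deletion.

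UMIs count molecules and were not divided by transcript length. The 7 genes differed widely in amount. Amelx had 67324 UMIs in the kept control cells and 42990 in the deletion cells. Ambn followed with 23302 and 12341, then Enam with 2606 and 1688. Mmp20 and Odam had similar totals, 1678 and 603 for Mmp20 and 1698 and 684 for Odam. Klk4 and Amtn were close to absent at birth, with 41 and 27 UMIs of Klk4 and 7 and 3 of Amtn.

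The genes also differed in which tissue held them. Epithelium-like cells held 97.2% of all Amelx UMIs in the control library and 94.2% in the deletion library. For Enam these shares were 96.7% and 95.5%, and for Odam 96.4% and 96.9%. Ambn was mostly elsewhere: epithelium held 11.2% and 12.9% of it, and odontoblast-like cells, the dentin-forming cells that face the ameloblasts, held 54.2% and 33.6%. Mmp20 was divided between both layers, with 37.8% and 53.7% in epithelium and 59.2% and 42.3% in odontoblast-like cells. Shares of a library's total follow how many cells of each class it holds, and the odontoblast-like class had 1540 control and 681 deletion cells.

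**Figure D1:**
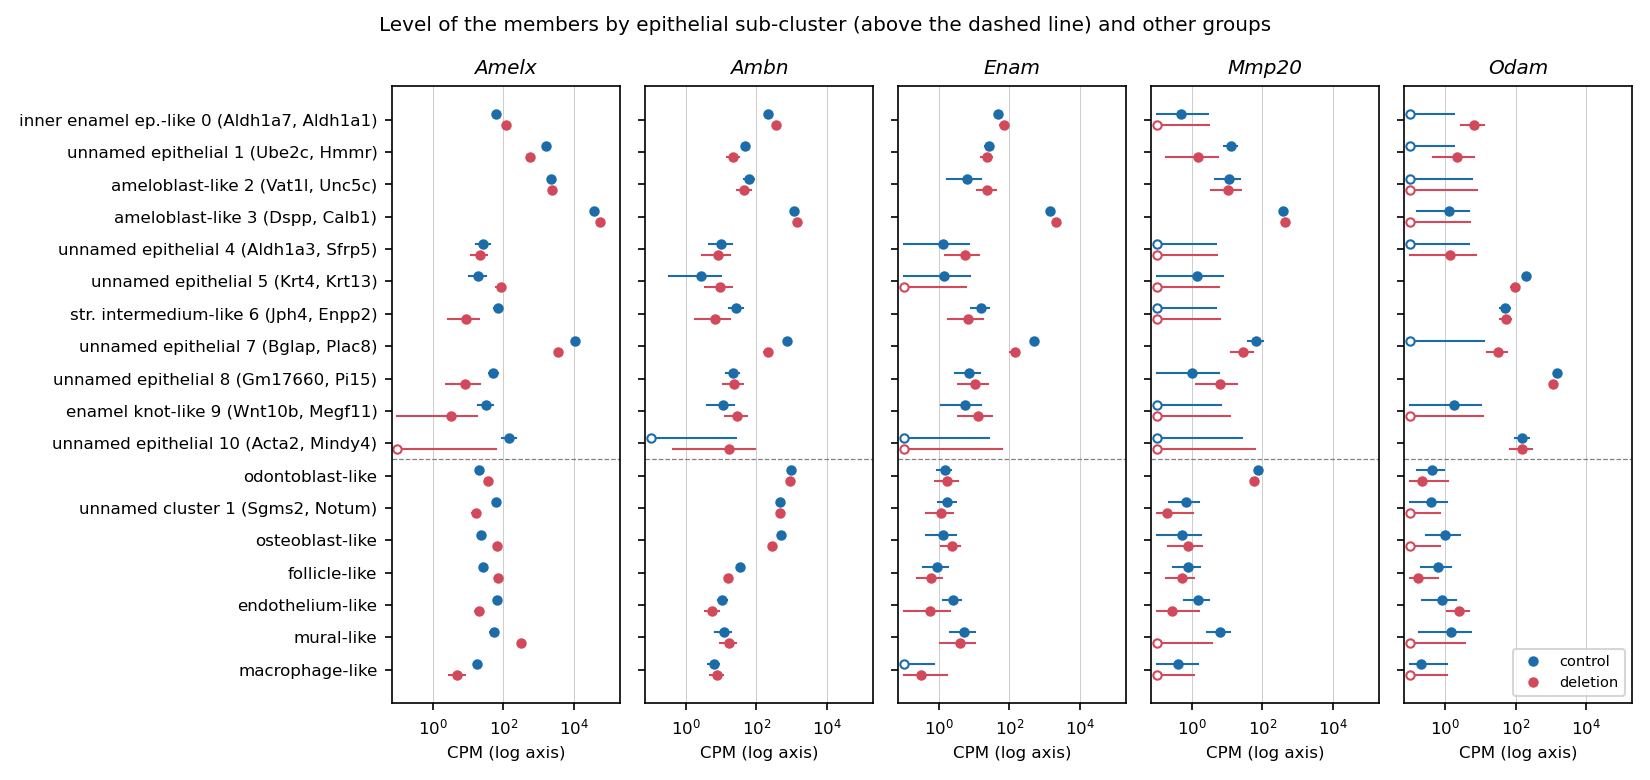
Level of 5 members in CPM (log axis) in 11 epithelial sub-clusters and 7 other groups, one point per library with its exact 95% Poisson interval; hollow points at the left edge stand for 0 UMIs. Amelx, Enam and Mmp20 are highest in the Dspp-led ameloblast-like cells, Ambn is high there and in odontoblast-like cells, and Odam is highest in the Gm17660-led cells.

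In the Dspp-led ameloblast-like cells Amelx was the most abundant of all genes in both libraries. Its level was 37447 CPM (37141 to 37755) in the control and 53389 CPM (52848 to 53934) in the deletion library, more than 10-fold above the Vat1l-led ameloblast-like cells, which had 2181 and 2370 CPM. Enam, the largest of the matrix proteins, had 1437 and 2039 CPM in the Dspp-led cells and ranked 96 and 65 among all genes. Ambn had 1148 and 1422 CPM and ranked 116 and 97. Mmp20 had 379 and 437 CPM, ranking 349 and 278. Odam was at 2 and 0 UMIs, Klk4 at 3 and 1, and Amtn at 0 and 0, so the cells that held 85.1% and 86.7% of all Amelx UMIs held almost none of Odam, Klk4 and Amtn.

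Amelx was very uneven between cells of that sub-cluster. In the control library it ran from 0 through a median of 4584 CPM to 278005 CPM, and the most Amelx UMIs in a cell were 1865. In the deletion library it ran from 0 through a median of 15394 to 251548 CPM. To compare shares of cells at equal depth, each cell was thinned to 1900 UMIs. Amelx was then detected in 70.2% (64.7 to 75.2) of 305 control and 71.8% (64.4 to 78.4) of 170 deletion cells. Ambn was detected in 48.5% and 55.9%, Enam in 31.5% and 44.1%, and Mmp20 in 34.1% and 42.4%. In endothelium-like cells, which should lack these genes, the thinned share was 3.6% and 2.6% for Amelx and 2.06% and 0.650% for Ambn, with median depths before thinning of 3026 and 2955 UMIs against 4094 and 3144 in the Dspp-led cells.

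In the Dspp-led cells the matrix and protease genes were found together. Of the thinned control cells with Amelx, 61.7% also had Ambn, 40.7% Enam and 44.4% Mmp20. Of those without Amelx, 17.6% had Ambn, 9.89% Enam and 9.89% Mmp20, and none of the 3 pairs of intervals overlapped. In the deletion library Mmp20 was present in 56.6% of cells with Amelx (47.3 to 65.5) and 6.25% of those without it (1.31 to 17.2). Odontoblast-like cells did not show this: Mmp20 was in 9.58% (7.94 to 11.4) of control cells with Ambn and 14.6% (11.2 to 18.7) of those without.

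Across all epithelium-like cells ordered by their Amelx UMIs, the other genes stood high at different points of the range. In control cells without Amelx, Ambn stood at 73.2 CPM (64.1 to 83.3), Enam at 21.9 (17 to 27.7) and Mmp20 at 3.8 (1.97 to 6.65). In cells with 30 to 99 Amelx UMIs they stood at 723, 377 and 275 CPM, and in cells with 100 or more at 2826, 4373 and 871 CPM. Enam was thus below Ambn in every control bin but the highest, where it was above it. In the deletion library Enam had 38.5 CPM in cells without Amelx and 4295 CPM in the highest bin, with a non-monotonic course between, 866 CPM at 10 to 29 UMIs and 628 at 30 to 99, in bins of 31 and 26 cells. Calb1, the calcium-binding protein calbindin, was already at 1133 CPM in control cells with 1 to 2 Amelx UMIs, against 146 CPM without Amelx. Odam ran the other way, from 185 to 6.27 CPM in the control and from 117 to 0 CPM in the deletion library. The bins are ranges of one gene, and the cells of a bin share library and depth.

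**Figure D2:**
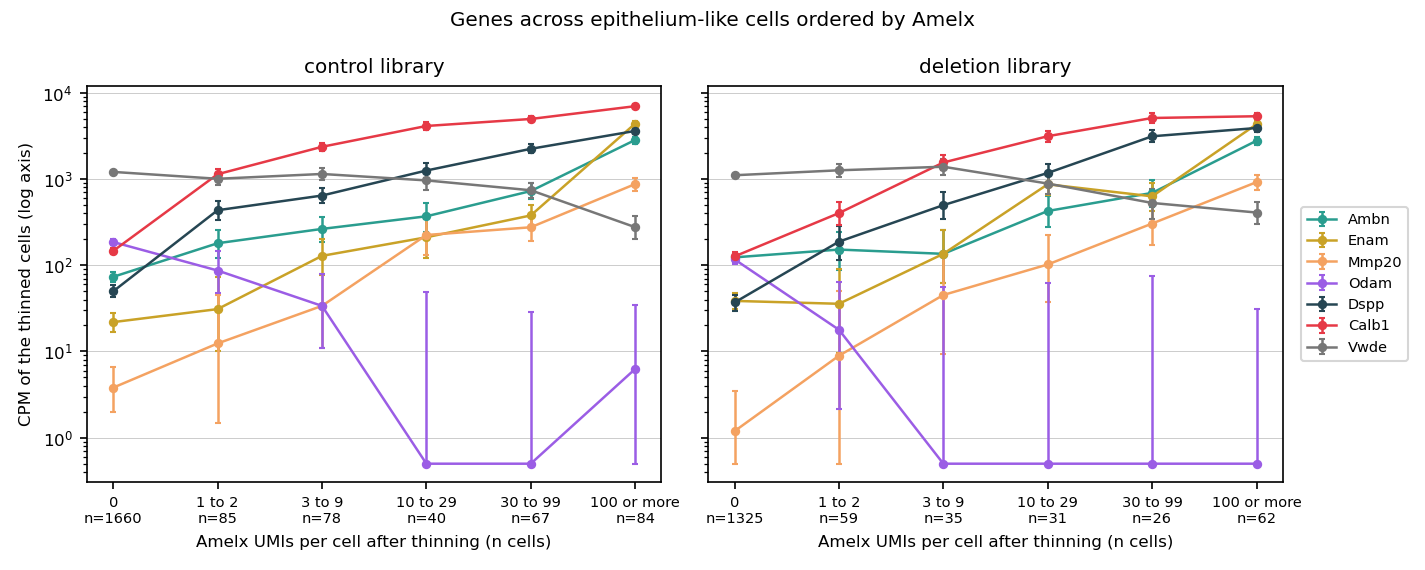
CPM (log axis) of 4 members and 3 other genes in epithelium-like cells thinned to 1900 UMIs and grouped by Amelx UMIs per cell, one panel per library, with exact 95% Poisson intervals and the number of cells under each bin; points at the lower edge stand for 0 UMIs. Ambn, Enam and Mmp20 are highest in the last bin of both libraries, with Enam at 4373 and 4295 CPM, while Odam is highest in cells without Amelx.

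A different order of the same genes was seen in the sub-cluster led by Aldh1a7, which was named inner enamel epithelium-like (462 control and 352 deletion cells). The name rests on relative scores: the 6 inner enamel epithelium markers summed to 1739 and 1235 CPM, near their sum in the Dspp-led cells (1820 and 1102 CPM), and the 8 mesenchymal markers to 3274 and 3296 CPM against 3076 and 2980 CPM for the epithelial ones. The ameloblast list summed to 3380 and 2886 CPM and the stellate reticulum list to 1353 and 1233 CPM. In all epithelium-like cells the stellate reticulum list stood at 571 and 571 CPM. The inner enamel epithelium list stood at 1380 and 957 CPM there, so the markers do not single out this name. The part of other cells' RNA in these sums was not tested. Ambn had 220 and 358 CPM here, Enam 46.9 and 69.5 CPM and Amelx 63.3 and 120 CPM. Thinned shares set against those of endothelium-like cells separated the genes in the control library. Ambn was detected in 19.95% (16.3 to 24.0) of control cells, against 2.06% (1.26 to 3.16) in endothelium-like cells, and Enam in 7.34% (5.07 to 10.2) against 0.411% (0.112 to 1.05). Amelx, in 4.59% (2.82 to 7.0) against 3.6% (2.52 to 4.97), was not above that background in the control library. In the deletion library it was detected in 6.06% (3.63 to 9.41), and the intervals of the shares overlapped. Its level of 120 CPM was nevertheless above that of deletion endothelium-like cells. Per 100 Amelx UMIs, background included, there were 348 (285 to 427) of Ambn in the control and 297 (246 to 360) in the deletion library, against 3.07 and 2.66 in the Dspp-led cells. Mmp20 had 1 and 0 UMIs.

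**Figure D3:**
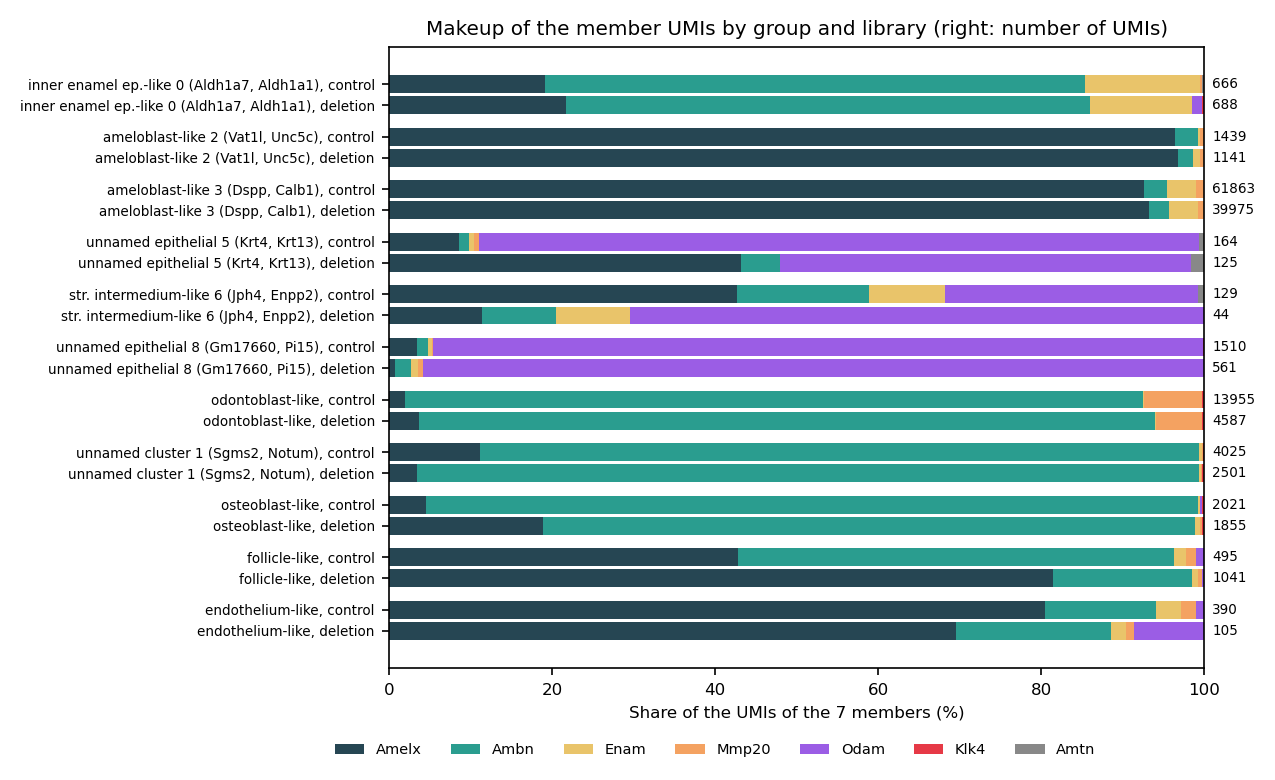
Share of each of the 7 genes among their summed UMIs (%), by group and library, with the number of UMIs at the right. Amelx fills 92.7% and 93.2% of the bars of the Dspp-led ameloblast-like cells, Ambn leads in the inner enamel epithelium-like, odontoblast-like, Sgms2-led and osteoblast-like cells, and Odam leads in the Gm17660-led cells.

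Odam was counted in other epithelial cells than the matrix genes. Its level was 1466 CPM (1391 to 1544) in the control and 1138 CPM (1044 to 1239) in the deletion library in an unnamed sub-cluster led by Gm17660 and Pi15 (217 and 144 cells), where thinned shares were 52.1% and 46.4%. Those cells held 1428 of the 1637 epithelial Odam UMIs in the control and 538 of 663 in the deletion library. It was lower in the sub-cluster led by the oral keratins Krt4 and Krt13, at 198 and 97.6 CPM, and in that led by Acta2, at 153 and 150 CPM. Stratum intermedium-like cells, which underlie the ameloblasts, had 51.5 and 53.1 CPM. In the Gm17660-led cells Amelx had only 51 and 4 UMIs and Mmp20 1 and 3. Gm17660, on the list of secretory calcium-binding phosphoprotein genes, is the leading gene of that cluster, so its level there is not a finding.

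Ambn in odontoblast-like cells was near its level in ameloblast-like cells. It stood at 931 CPM (915 to 948) in the control and 905 CPM (878 to 933) in the deletion library, and the ratio of 0.972 had an interval from 0.938 to just above 1. Its distribution was more even than that of Amelx in ameloblasts: the median cell had 816 and 755 CPM, and thinned shares were 75.9% and 77.0%. Mmp20 had 73.2 CPM (68.7 to 77.9) and 55.7 CPM (49.1 to 63.0) and thinned shares of 10.8% and 7.68%. That difference turned between sets of cells told apart by their UMIs of Xist (made by female cells) or of Y-linked genes. The sets come from different pups, so sex and pup cannot be told apart. Mmp20 had 36.5 and 54.4 CPM in Xist-only odontoblast-like cells (280 and 234) and 72.9 and 27.8 CPM in cells with Y-linked UMIs only (742 and 162), the latter past the 2-fold rule, where 0.11% of genes were lower. By the 2-fold rule (at least 50 CPM in 1 library, a 2-fold difference in CPM + 5 and a ratio interval excluding 1) no member differed between the libraries in odontoblast-like cells, where 0.0377% of genes did. These cells also held 63.4% and 40.7% of the few Klk4 UMIs, 26 and 11 in number (1.92 and 2.40 CPM).

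Amelx and Enam did not share this level in odontoblast-like cells. Amelx had 19.8 and 36.5 CPM there and Enam 1.47 and 1.75 CPM, so that Ambn outnumbered Amelx by 4699 and 2481 to 100. In endothelium-like cells this figure was 16.9 and 27.4 to 100. Ambn was also high in the unnamed Sgms2-led cluster, at 477 and 470 CPM, and in osteoblast-like cells, at 493 and 283 CPM. Follicle-like cells had 33.9 and 15.3 CPM. None of these Ambn differences passed the 2-fold rule. Amelx did pass it: 60.2 and 16.4 CPM in the Sgms2-led cluster (0.0334% of genes lower), 23.2 and 66.5 CPM in osteoblast-like cells (0.373% higher) and 27.2 and 72.7 CPM in follicle-like cells (0.29% higher). These calls leaned on few cells: 1 control cell held 290 of the 448 Amelx UMIs of the Sgms2-led cluster. Without the highest cell of each library the levels were 21.2 and 11.7 CPM there and 20.9 and 43.9 CPM in osteoblast-like cells, neither past the rule, and 23.6 and 60.4 CPM in follicle-like cells. Without all cells of 10 or more Amelx UMIs follicle-like cells had 15.9 and 16.1 CPM.

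Low counts of the abundant genes were present in cells that should not make them. In endothelium-like cells (1229 and 983) Amelx had 64.7 CPM (57.7 to 72.3) in the control and 20.3 CPM (15.9 to 25.5) in the deletion library, and Ambn 10.9 and 5.55 CPM. Amelx there was past the 2-fold rule, lower in the deletion library by a log2 ratio of -1.46, as were 0.0604% of genes. Taking out the few cells with 10 or more Amelx UMIs left 20.5 CPM (16.7 to 24.9) and 12.5 CPM (9.12 to 16.7). Mural-like cells went the opposite way with 54.5 and 316 CPM, a difference past the rule (0.561% of genes higher), and stood at 14.6 and 12.3 CPM without such cells. Macrophage-like cells had 18.5 and 5.0 CPM.

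Across 6 classes that are neither epithelial nor mesenchymal, 10 of 2354 control and 4 of 2187 deletion cells had 10 or more Amelx UMIs. These held 64.8% and 81.3% of the Amelx UMIs of those classes, and the highest held 85 and 203. In 9 and 4 of them Ambn, Enam or Mmp20 was also present, so these barcodes held several enamel transcripts together. In the endothelium-like cells Enam was at 3.82 (1.95 to 6.77) per 100 Amelx UMIs in the control library, and in the Dspp-led ameloblast-like cells at 3.84. Ambn per 100 Amelx UMIs was not alike: it was higher in the endothelium-like than in the Dspp-led cells in both libraries. The source of these UMIs was not tested. At equal depth Amelx was detected in 1.96% and 1.51% of odontoblast-like cells, no more than in endothelium-like cells (3.6% and 2.6%), although its level in the deletion library was higher in odontoblast-like cells (36.5 against 20.3 CPM), where 1 cell held 121 of the 167 UMIs. Ambn stood far higher in odontoblast-like than in endothelium-like cells, at 75.9% and 77.0% against 2.06% and 0.650% of cells.

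Between the genotypes, the question was whether deletion of epithelial Edar goes with a different level of enamel transcripts. In epithelium-like cells none of the 7 passed, where 0.225% of 3553 genes did. The log2 ratio of deletion to control was -0.09 for Amelx, -0.12 for Ambn, -0.04 for Enam, -0.34 for Mmp20 and -0.68 for Odam, beside a median of -0.06 over all genes. Levels behind the last pair were 60.9 and 47.2 CPM for Mmp20 and 157 and 96.5 CPM for Odam. The libraries differ in the sub-clusters that make up their epithelium, and with equal weights per sub-cluster Odam was at -0.33 and Mmp20 at 0.04.

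In the Dspp-led ameloblast-like cells, with 0.465% of genes past the rule, none of the 7 passed either. All 4 genes with more than a few UMIs were nevertheless higher in the deletion library beyond counting error. The ratio was 1.43 (1.41 to 1.44) for Amelx, 1.42 (1.33 to 1.52) for Enam, 1.24 (1.14 to 1.34) for Ambn and 1.15 (1.00 to 1.33) for Mmp20, where 4.76% of genes had a ratio interval above 1. For ameloblast-like cells as a whole (0.337% past the rule, none of them members) Amelx was at 27090 and 32968 CPM and Enam at 1017 and 1232 CPM, both with intervals above 1, while those of Ambn and Mmp20 included 1; 6.13% of genes had an interval above 1. In the inner enamel epithelium-like cells Amelx, Ambn and Enam were higher in the deletion library by log2 ratios of 0.88, 0.69 and 0.52, none past the rule, where 0.328% of genes were. There the direction differed between the Xist-only and the Y-only cells. In Xist-only cells (71 and 171) the ratios were 2.89, 1.19 and 1.01, all past the rule (2.0% of genes higher), with 5 control UMIs of Amelx. In Y-only cells (182 and 58) Amelx was at -2.21 and Enam at -1.28, both past it (3.1% lower), on 4 and 5 deletion UMIs, and Ambn at -0.52.

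Members passed the rule in 6 other epithelial sub-clusters. In the cells led by Ube2c and Hmmr (351 and 294 cells) Amelx had 1664 and 566 CPM, where 0.198% of genes were lower by the rule. Cells with 10 or more Amelx UMIs, 33 and 22 in number, carried it: without them the levels were 71.5 and 76.4 CPM. In the small sub-cluster led by Bglap, which encodes the bone protein osteocalcin, and Plac8 (38 and 59 cells) Amelx had 10727 and 3638 CPM, Ambn 759 and 207 CPM and Enam 493 and 143 CPM, where 2.56% of genes were lower. In the other 4 only Amelx passed, on few UMIs: 14 and 54 in the Krt4-led cells (0.453% of genes higher), 55 and 5 in stratum intermedium-like cells (0.475% lower), 51 and 4 in the Gm17660-led cells (0.79% lower) and 20 and 0 in the Acta2-led cells (1.15% lower). In each of these 4 the ratio interval included 1 without the highest cell of each library.

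Cells of different pups could be compared within a library. Cells with Xist UMIs only and with Y-linked UMIs only were present in each library, and these come from different pups. Cells with neither or with both were left out, and a place in a set needs a captured UMI, so it depends on depth. The sets held 53 and 155 of 333 control and 90 and 50 of 194 deletion Dspp-led cells. In the control library they held 3770 and 32328 of the 57320 Amelx UMIs of those cells. In the Dspp-led cells of the control library Amelx had 15049 CPM in the 53 Xist-only cells and 41551 CPM in the 155 Y-only cells, a ratio of 2.76 (2.67 to 2.86). Ambn had 475 against 1397 CPM and Enam 539 against 1708 CPM. Amelx lies on the X chromosome and Ambn and Enam on an autosome, and a part of chromosome or sex in these differences was not tested. These 3 passed the 2-fold rule, as did 1.35% of genes with Y-only cells higher, while Mmp20, at 212 against 418 CPM, missed it with a ratio of 1.97. In the deletion library the same comparison of 90 and 50 cells gave 46867 and 57160 CPM for Amelx, a ratio of 1.22 (1.19 to 1.25). The Amelx ratio of 1.43 between the genotypes lay between the within-library ratios of 1.22 and 2.76. No member passed the rule in the deletion library, where 5.13% of genes passed in either direction. Dspp, which leads the sub-cluster, did pass there, at 1737 and 3767 CPM.

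The genotype comparison therefore depended on which cells were set side by side. In Xist-only Dspp-led cells the log2 ratio of deletion to control was 1.64 for Amelx, 1.37 for Ambn and 1.88 for Enam, all past the rule (1.14% of genes higher), and 0.70 for Mmp20. In Y-only cells it was 0.46, 0.24, 0.58 and 0.44, with none past it (4.04% of genes in either direction). Amelx, Ambn and Enam also passed in Xist-only ameloblast-like cells of both sub-clusters (1.09% higher), and Amelx and Enam in Xist-only epithelium-like cells (0.573% higher). In the Dspp-led cells both sexes leaned the same way, and their values differed by more than the pooled difference of 0.51 for Amelx. Dspp-led cells made up 13.7% of Xist-only and 17.6% of Y-only epithelium in the control library and 10.2% and 17.4% in the deletion library. Differences between pups, between sexes and between genotypes cannot be told apart with 1 library per genotype.

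**Figure D4:**
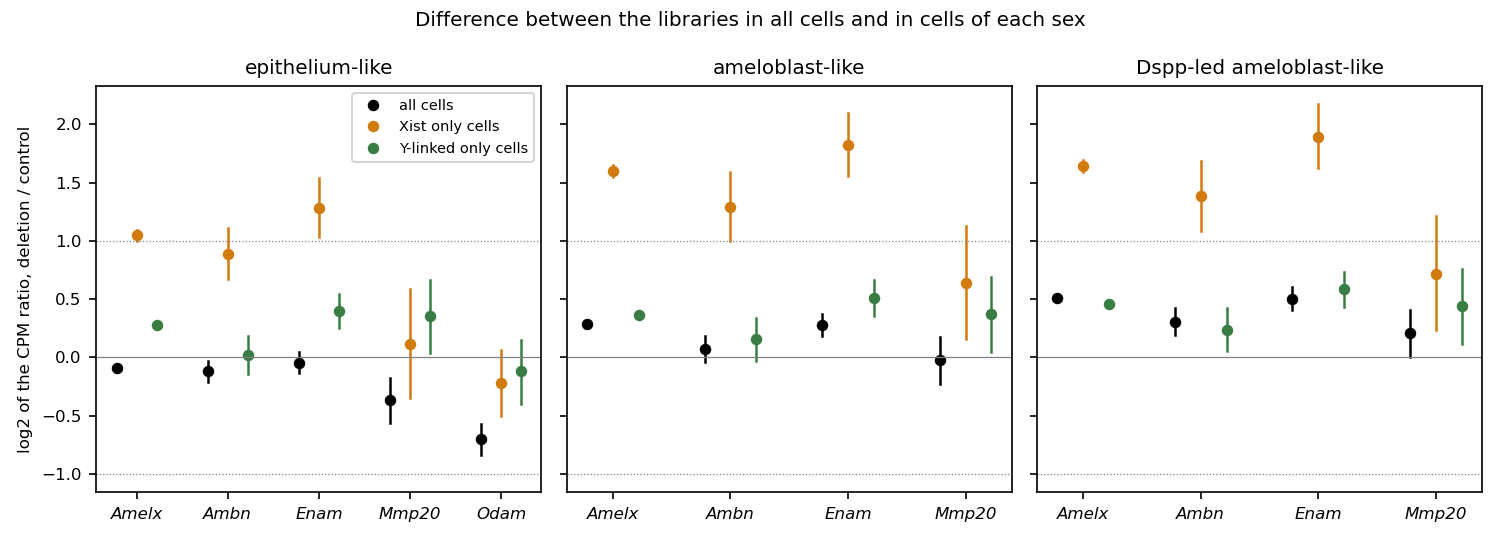
Log2 of the CPM ratio, deletion over control, for the members with at least 50 CPM in 3 groups of cells, for all cells, Xist-only cells and Y-linked-only cells; bars are 95% intervals for counting error, and dotted lines mark a 2-fold difference. Xist-only cells sit above the other points for Amelx, Ambn and Enam in each panel, near 1.64, 1.37 and 1.88 in the Dspp-led cells.

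Of 5 lists of other enamel formation genes, none had a gene past the rule in epithelium-like, ameloblast-like or Dspp-led cells. Of all genes at or above the rule's CPM floor, 0.225%, 0.337% and 0.465% passed in these groups. With shares this small, the lack of a call in short lists says little. List genes under that floor in both libraries could not pass. Sparcl1 in Dspp-led cells was such a gene, with a log2 ratio of 1.12 (ratio interval 1.25 to 8.40) at 5.88 and 18.6 CPM. In Dspp-led cells the medians of log2 ratios were 0.00 for 6 adhesion genes, 0.13 for 8 measured of 13 transport and mineral genes, 0.12 for 9 of 10 processing and secretion genes, -0.11 for 13 of 14 regulators, and 0.33 for 5 of 8 other secretory phosphoprotein genes, beside -0.05 over all genes at 5 CPM or more. By the ratio interval, 1 of the 13 regulators at 5 CPM or more was above 1 and 6 were below. Of all genes at 50 CPM or more, an unlike floor, 4.76% and 9.68% were. The regulator above, Cebpb, stood at 28.1 and 48.7 CPM, under that floor. The counts above and below were 0 and 0 for adhesion genes and 0 and 2 for transport and mineral genes. They were 1 and 0 for processing and secretion genes and 2 and 0 for other phosphoprotein genes. The list genes with the highest ameloblast-like levels were Calb1, at 3176 and 2441 CPM, Dspp, at 1377 and 1457 CPM, the transcription factor Sp6, needed for ameloblast differentiation, at 1389 and 1153 CPM, and the chromatin organiser Satb1, at 925 and 774 CPM. Calb1 and Sp6 are among the markers that named these cells, and Dspp and Calb1 lead a sub-cluster, so their high levels are not a finding. The ratio intervals of Calb1 and Sp6 were 0.735 to 0.803 and 0.777 to 0.885, and neither passed the 2-fold rule.

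Genes whose level followed the summed Amelx, Ambn and Enam most closely over the 30 control clusters were Aifm3 (r = 0.85), St8sia1 (0.84), Syt17 (0.83), Gm34278 (0.83), C1galt1 (0.82), Gm40193 (0.82), Fam189a2 (0.82), Neb (0.81), Tmem121b (0.81) and Ccsap (0.81). Over the 32 deletion clusters the same genes had r between 0.51 (Neb) and 0.75 (St8sia1). In the Dspp-led cells Fam189a2 was the most abundant of them, at 336 and 268 CPM, and St8sia1, a sialyltransferase, had 164 and 156 CPM. Clusters share their library and its depth, so the coefficients are descriptions only.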

How the data were processed

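Single cells of tooth germs were captured on the BD Rhapsody system, per the labels' protocols. The authors deposited raw UMI counts per gene and barcode, made with STARsolo against mm10 per the submitters' processing notes; its version, the annotation and the strand setting: not given in the sources used here. Filtering kept barcodes with at least 500 genes and at most 20% mitochondrial UMIs. Scrublet marked 1.31% (control) and 1.57% (deletion) of these as doublets, which were removed. Clustering used scanpy 1.11.5 and leidenalg 0.10.2 under Python 3.11.15: counts scaled to 10000 per cell, 2000 variable genes without the 7 members, 30 components, 15 neighbours and Leiden resolutions of 1 (all cells) and 0.6 (sub-clusters). Clusters were named from marker lists by a scoring rule set after seeing the data, needing 3 detected markers; others stayed unnamed. The members, lists and markers were chosen with earlier results of these data known.

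UMIs were summed per group and library and given as CPM with exact Poisson 95% intervals; log2 ratios used CPM + 5, ratio intervals are conditional binomial, and shares of cells are Clopper-Pearson intervals. All cover counting error only. Thinning to 1900 UMIs left out 946 and 1644 kept cells. The 2-fold rule was run on simulated Poisson counts with changes larger than 2-fold and no spread between cells or pups. That run checks the calculation, not how the rule behaves on counts as uneven as these. With 1 library per group no p-value is given. The genes named are the 7 members, list genes past the rule, the 4 list genes highest in ameloblast-like cells, and the 10 genes most correlated with Amelx, Ambn and Enam. Cebpb and Sparcl1 are named as list genes under the rule's CPM floor in Dspp-led cells. Promoter sequences are from RefSeq, and all 7 members matched. Alternatives were a stricter filter, doublets kept, other pseudocounts, resolutions and weights, members kept in the clustering, thinning, cells of 1 sex, and leaving out cells with keratin or member UMIs.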

Additional observations from a re-analysis of the deposited data

Results flagged for a closer look

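Some differences between the libraries pointed one way in one group and the other way in the Dspp-led ameloblast-like cells; none of these contrasts between groups was tested. In the Dspp-led cells the log2 ratios of deletion to control were 0.51 for Amelx, 0.31 for Ambn, 0.50 for Enam and 0.20 for Mmp20. In the epithelial cells led by Ube2c and Hmmr, Amelx was at 1664 and 566 CPM, a ratio of -1.55, past the 2-fold rule with 0.198% of genes lower there, and the levels were 71.5 and 76.4 CPM without cells of 10 or more Amelx UMIs. In the epithelial sub-cluster led by Bglap, an osteoblast marker, and Plac8 (38 and 59 cells), the ratios were -1.56 for Amelx, -1.85 for Ambn and -1.75 for Enam. All were past the rule with 2.56% of genes lower, and they were -2.13, -1.23 and -2.57 without the highest cell of each library. In endothelium-like cells Amelx was at -1.46, at -1.58 without the highest cells, and the levels were 20.5 and 12.5 CPM without cells of 10 or more Amelx UMIs. In odontoblast-like cells Mmp20 was at -0.37, at 0.52 in Xist-only cells and at -1.25 in Y-only cells.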

How the results depend on the processing

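No paired analysis was possible because each genotype has 1 library. With no replicate library, these values say how far settings move the numbers, not how animals vary. For the summed 7 members in ameloblast-like cells (log2 ratio 0.27), the ratio was 0.21 with a stricter cell filter, 0.25 after thinning, 0.11 when the members were kept in the clustering and 0.095 at a Leiden resolution of 1.0. It was 1.59 in Xist-only cells, 0.37 in Y-only cells and 0.50 in the Dspp-led cells alone. Their median ratio (0.17) was 0.024 with members in the clustering, 0.011 at the higher resolution, 1.44 in Xist-only and 0.37 in Y-only cells, 0.40 in Dspp-led cells and 0 with no minimum level. For epithelium-like cells (sum -0.11), the sum was -0.089 with the stricter filter, -0.071 after thinning, 1.01 in Xist-only and 0.27 in Y-only cells, 0.17 with equal sub-cluster weights and -0.050 without the Bglap-led cells. Their median ratio (-0.12) was 0.86, 0.28 and 0.036 in Xist-only cells, Y-only cells and with equal weights. In Xist-only cells 3 members passed the 2-fold rule in ameloblast-like cells (1.09% of genes higher) and 2 in epithelium-like cells (0.573%), against 0 in all cells. In endothelium-like cells the members' sum of 80.4 CPM in the control library was 67.4 without cells holding keratin UMIs and 32.9 without cells of 10 or more member UMIs, and 29.1 CPM in the deletion library was 21.1 without the latter. The causes were not tested. The other 46 of these values moved by less than counting error, as did 142 values for single genes and shares against 69 that moved more. The epithelium-like sum and median and some single genes changed sign under the settings above; none of them passed the 2-fold rule in all cells. The Dspp-led, Bglap-led and 10-UMI alternatives were chosen after seeing the data.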
